A study of Mus musculus with 12 samples.

Results

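The vehicle cultures of a drug experiment were compared with the wild-type control cultures of a genotype experiment, which together are 6 of the 12 samples of a study of pyruvate kinase M2 (PKM2) in mouse natural killer (NK) cells. Both groups of 3 were control cultures of C57BL6 mice, and RNA sequencing gave a value for 11706 genes, of which 11144 had a mean of at least 1 RPKM (reads scaled to gene length and to library size) over these 6 libraries and were tested. The vehicle cells had the genotype label WT and received DMSO at 0.1% by volume, per the sample labels, as the control for the PKM2 activator TEPP-46; the series' design text names PBS in this place. The other control cells, labelled PKM2 WT, were heterozygous for a Cre recombinase named after Ncr1, a gene of NK cells and of some other innate lymphocytes, and no DMSO is named for them. In both groups spleen cells were grown for 6 days in interleukin 15 (IL-15) at 10 ng per mL, NK cells were purified with magnetic beads, and both cytokines, 330 U of IL-2 and 10 ng of IL-12 in each mL, were then given for 18 hours. How many animals stand behind a culture is not stated in the labels, and p-values therefore measure only the spread between these libraries. The experiment, the genotype with its Cre, and the vehicle differ between the groups in the same way and cannot be told apart. Animal sex is not in the labels used. PKM2 WT replicates 1 and 2 expressed Xist, and the remaining libraries of both groups expressed the Y-linked gene Ddx3y. The labels give both groups the same cytokines. Ifng and some other genes that these cytokines are known to induce nevertheless lay far lower in the libraries labelled PKM2 WT. Others, such as Cish and Il12rb2, differed little, and Tnf lay higher there. Whether the libraries labelled PKM2 WT hold cells stimulated as labelled was not settled by the sources used here. A difference in stimulation therefore cannot be told apart from the others in any value below.

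NK cells are lymphocytes that kill infected or transformed cells with perforin and granzymes and secrete interferon gamma. IL-12 signals through the kinases JAK2 and TYK2 to the transcription factor STAT4, and together with IL-2 it is known to induce interferon gamma, the high-affinity IL-2 receptor chain, glycolysis and cell division in NK cells. Resting lymphocytes keep transcripts of homing receptors and of quiescence factors that activation lowers.

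The 2 groups differed in most genes although their cytokine labels are the same. At an adjusted p under 0.05 (limma on log2(RPKM + 1), Benjamini-Hochberg over the 11144 genes), 8220 genes differed, or 73.8% of those tested, 4227 of them higher in vehicle (37.9%) and 3993 lower (35.8%). At least 2-fold differences, again of RPKM + 1, were found in 2591 genes (23.3%), 1464 higher in vehicle (13.1%) and 1127 lower (10.1%). For 8651 genes (77.6%) every library of one group lay above every library of the other. The limit on low values was set on the mean of both groups. It was thus passed through vehicle alone by 135 genes, of which 79 were among the 2-fold higher ones, and through PKM2 WT alone by 501 genes, of which 218 were among the 2-fold lower ones. Genes named below that passed through vehicle alone include Il10, Stom, Mycn, P2rx3, Tnfrsf8 and Egln3. Those that passed through PKM2 WT alone include S1pr1, Bach2, Pdk2, Phactr3, Igkc and Itga2b. For such genes the filter favoured the direction found, which therefore adds no support to a list. The median log2 difference, coded throughout as vehicle minus PKM2 WT, was 0.0024 over the genes tested, with quartiles of -0.54 and 0.57. At 4-fold and beyond there were 262 genes higher and 217 lower, and at 16-fold and beyond 10 higher and 16 lower. Vav2 and Gm17193, each with a mean of 1.00 RPKM, were the last genes inside the limit on low values, and Gm7496 (0.998 RPKM) and Gm19931 (0.993 RPKM) the first outside it.

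**Figure D1:**
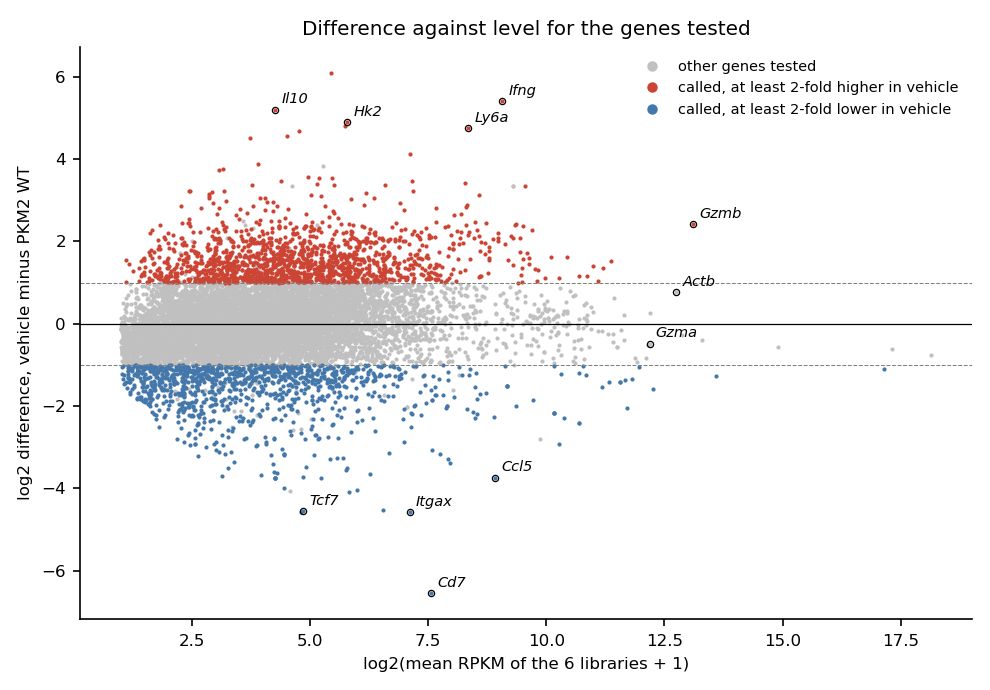
Difference between the groups against level. Each point is 1 gene, with log2 of its mean RPKM over the 6 libraries plus 1 on the x axis and the log2 difference, vehicle minus PKM2 WT, on the y axis; dashed lines mark 2-fold, and genes listed at 0 in all 3 libraries of a group are left out. Genes at least 2-fold higher in vehicle (red) and lower (blue) lie on both sides at low and high levels, with Ifng at 5.42 and Cd7 at -6.55.

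Ifng, the gene of interferon gamma (ENSMUSG00000055170, chromosome 10, 118441046 to 118445892, GRCm38), had the largest difference among the higher protein-coding genes. Its level was 22.7, 23.4 and 24.2 RPKM in the 3 libraries labelled PKM2 WT, while vehicle libraries gave 1014, 1034 and 1083 RPKM. The groups were far apart and tight within themselves, with a ratio of means of 44.6. By this ratio some genes of low level in PKM2 WT ranked above Ifng, among them Tnfrsf8 at 83.5 and P2rx3 at 70.2. The log2 difference was 5.42 with a standard error of 0.06 (limma adjusted p = 1.23e-07). Permuting the libraries in all 20 arrangements (an exact two-sided test) gave p = 0.1, the smallest that 3 against 3 allows. The Ifng difference was known when this comparison was chosen, so neither test adds support for it. The libraries of the other group in each experiment lay beside their own control, at a mean of 21.5 RPKM in PKM2 KO (n = 2, the same Cre with PKM2fl/fl alleles) and 867 RPKM in TEPP-46 (n = 3). In bulk RNA, fewer cells of a type and less RNA per cell cannot be told apart, for Ifng and for the genes below.

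The promoters of 3 genes are shown because their genes stand for the groups described below, a cytokine, a transcription factor and a glycolytic enzyme, and because they hold the letters of the motifs that were searched. They are the 250 bases before the RefSeq start, from GRCm38.p6, all on the plus strand, with capitals marking TTCNNNGAA, the core of the STAT-bound GAS element, in Ifng and Irf8, and CACGTG, an E-box of the kind bound by MYC and HIF-1, in Ldha.
Ifng, chr10:118440796-118441045: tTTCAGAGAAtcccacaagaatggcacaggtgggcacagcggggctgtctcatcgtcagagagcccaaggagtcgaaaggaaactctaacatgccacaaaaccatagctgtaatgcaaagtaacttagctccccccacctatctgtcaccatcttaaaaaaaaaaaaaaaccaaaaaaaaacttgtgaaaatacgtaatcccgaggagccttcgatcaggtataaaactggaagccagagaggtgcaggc
Irf8, chr8:120736108-120736357: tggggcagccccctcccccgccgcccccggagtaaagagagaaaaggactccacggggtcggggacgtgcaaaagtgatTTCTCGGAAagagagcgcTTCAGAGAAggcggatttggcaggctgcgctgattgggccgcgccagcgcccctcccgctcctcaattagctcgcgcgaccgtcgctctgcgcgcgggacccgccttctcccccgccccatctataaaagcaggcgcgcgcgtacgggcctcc
Ldha, chr7:46845554-46845803: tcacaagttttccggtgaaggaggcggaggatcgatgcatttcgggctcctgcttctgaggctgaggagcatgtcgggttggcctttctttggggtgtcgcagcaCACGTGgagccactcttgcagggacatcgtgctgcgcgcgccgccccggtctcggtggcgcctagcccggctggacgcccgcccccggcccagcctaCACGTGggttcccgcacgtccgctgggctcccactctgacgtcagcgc
The Ifng match began 249 bases before the start, those of Irf8 171 and 153 bases and those of Ldha 145 and 48 bases before it. Both motifs read the same on either strand in their fixed letters. TTCNNNGAA was in 7.02% of all 32851 windows of this length, in 6.09% of those of tested genes, in 6.59% of those of genes at least 2-fold higher in vehicle and in 7.29% of those of genes at least 2-fold lower. CACGTG was in 6.02% of all windows, in 8.46% of those of tested genes, in 10.0% of those of genes at least 2-fold higher and in 6.86% of those of genes at least 2-fold lower. These are counts of letters and not of binding.

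Among 18 tested cytokine and chemokine genes, 8 were higher and 7 lower in vehicle, with a median log2 difference of 0.48; these shares were near the 37.9% and 35.8% of all genes tested. Il10, whose product restrains inflammation, was listed at 0, 0.04 and 0 RPKM in the libraries labelled PKM2 WT and stood at 38.4, 35.7 and 35.0 RPKM in vehicle. Ccl3 and Ccl4, chemokines that draw in other leukocytes, were higher by 1.98 (standard error 0.16) and 1.57 (0.09) on the log2 scale. Other members went the opposite way. Ltb, a lymphotoxin chain, was at 162, 179 and 189 against 6.17, 7.21 and 6.70 RPKM, and Ccl5, a chemokine stored in cytotoxic lymphocytes, at 1024, 979.7 and 709 against 65.3, 59.3 and 73.6 RPKM. Ccl1 fell from a mean of 106 to 5.15 RPKM and Xcl1, which attracts dendritic cells, from 1537 to 758 RPKM. Tnf was lower by a smaller amount, at 26.9 ± 3.47 against 19.8 ± 0.971 RPKM (SD, n = 3 each), and Csf2 did not pass (log2 difference 0.26, limma adjusted p = 0.165). The cytokine genes thus did not move as one group: Ifng and Il10 were more than 16-fold higher in the same libraries in which Ltb and Ccl1 were more than 16-fold lower.

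Of 21 tested cytokine receptor chains, 5 were higher and 13 lower, with a median of -0.47, against 37.9% and 35.8% of all genes. The higher ones were Il2ra, which gives the IL-2 receptor its high affinity, Il6st, the shared chain of the IL-6 family, Il12rb1 and Il12rb2, the 2 chains of the IL-12 receptor, and Il2rb. Il6st was at 1.82, 2.28 and 1.65 against 20.9, 18.4 and 18.1 RPKM, and Il12rb1 at 43.2, 45.2 and 42.2 against 184, 179 and 169 RPKM. In both genes every vehicle library was above every library labelled PKM2 WT, as one group was above the other in 77.6% of all genes. Il12rb2 was close to the threshold (log2 difference 0.39, limma adjusted p = 0.0472). Il7r, the IL-7 receptor chain of resting and helper lymphocytes, was lower by 1.98 on the log2 scale (a difference of -1.98) and Il18r1 by 0.47 (-0.47).

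The JAK-STAT list had 9 of 26 members higher and 11 lower (median -0.08), near the 37.9% and 35.8% of all genes, with feedback genes at its upper end. Socs1 and Socs3, inhibitors that cytokine signalling induces, were at 8.74 ± 1.20 against 47.6 ± 6.30 RPKM and at 5.13 ± 0.356 against 29.7 ± 4.53 RPKM (SD, n = 3 each). Pim1 and Pim2, survival kinases induced by STATs, were 3.39 and 5.21 times higher by their means. Cish, another such inhibitor, differed less, at 19.2 ± 3.08 against 25.3 ± 2.99 RPKM (log2 difference 0.38, limma adjusted p = 0.0355). The 4 members at least 2-fold lower were Ptpn6, Jak2, Stat4 and Tyk2. Genes given as the exceptions or the few of a list were named after their values were seen. Stat4 was at 177 against 78.2 RPKM and Jak2 at 74.7 against 29.1 RPKM.

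Killing genes were split. Of 22 tested cytotoxic effectors 6 were higher and 12 lower (median -0.26), against 37.9% and 35.8% of all genes, and each of the 6 higher ones was at least 2-fold higher. Gzmb, the protease granzyme B, was the most abundant of the granzymes in vehicle, at 14831, 13962 and 15537 RPKM against 2884, 2622 and 2754 RPKM. Prf1, the pore-forming perforin, was at 218 ± 22.3 against 664 ± 10.8 RPKM, and Serpinb9, which shields the killer cell from its own granzyme B, at 77.9 ± 2.02 against 502 ± 30.5 RPKM (SD, n = 3 each). Gzma, granzyme A, went the other way, at 6209, 5288 and 4819 against 3947, 4071 and 3610.1 RPKM. Its groups did not overlap, as in 77.6% of all genes, and its call was lost under at least 1 alternative analysis. Gzmc, a granzyme of cultured lymphocytes, fell from 5357 to 2598 RPKM and Ctsw, a cathepsin of cytotoxic cells, from 514 to 121 RPKM. Granzyme genes are close relatives, and reads shared between them could be split by the counting. Fasl, the death ligand, was lower by 0.22 on the log2 scale (a difference of -0.22, standard error 0.05).

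**Figure D2:**
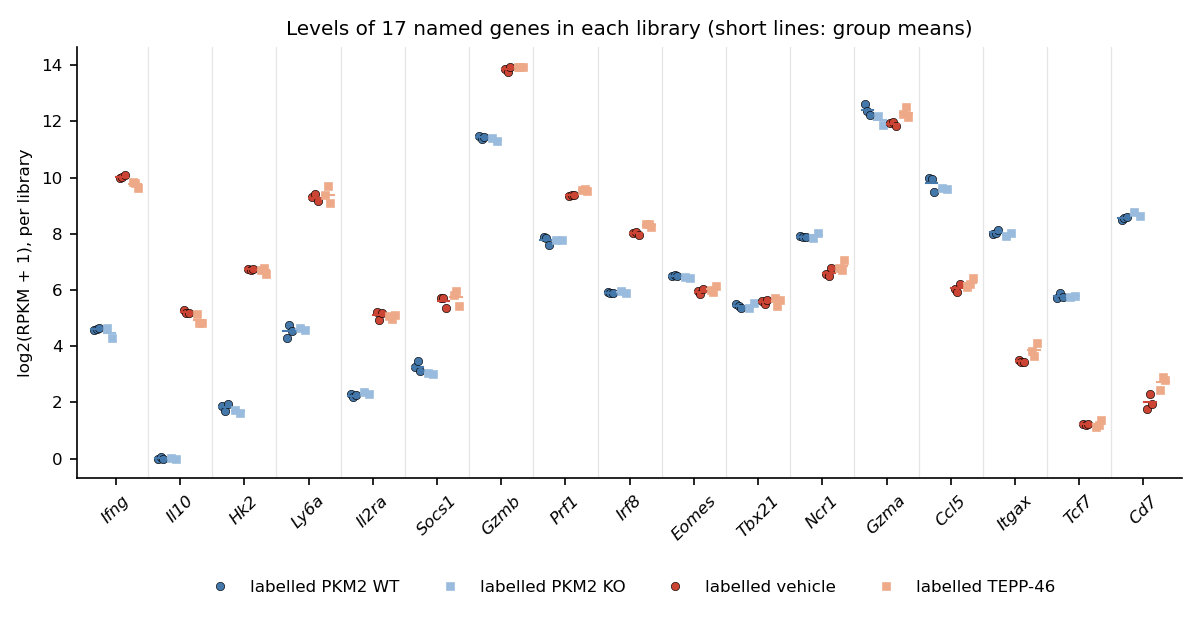
Levels of 17 named genes, as log2(RPKM + 1), in each library of the 4 groups; short lines are group means. The libraries labelled PKM2 WT and PKM2 KO lie together and those labelled vehicle and TEPP-46 lie together, with Ifng, Il10, Hk2 and Gzmb higher and Cd7, Tcf7, Itgax and Ccl5 lower in the drug experiment.

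Surface receptors of NK cells were lower together in vehicle. Of 48 tested receptor and adhesion genes 39 were lower and 3 higher, against 35.8% and 37.9% of the genes tested, with 27 at least 2-fold lower and a median of -1.24. Cd7 is an adhesion and signalling receptor of T and NK cells (ENSMUSG00000025163, chromosome 11, 121036747 to 121039418). On the log2(RPKM + 1) scale it had the largest fall among protein-coding genes, from 358, 376 and 391 RPKM to 2.38, 3.94 and 2.88 RPKM. The ratio of its means was 122, and its log2 difference was -6.55 with a standard error of 0.14 (limma adjusted p = 9.04e-07). Itgax, an integrin chain, fell from a mean of 265 to 10.1 RPKM and Klrb1f, a lectin-like receptor, from 101 to 7.92 RPKM. Klrb1c, the NK1.1 antigen by which NK cells of this strain are recognised, was at 407, 379 and 373 against 41.9, 46.1 and 39.5 RPKM. Ncr1, the gene of the receptor NKp46, was at 241, 238 and 235 against 94.7, 90.5 and 108 RPKM. Klrg1, a receptor of mature NK cells, was at 42.4 ± 5.49 against 16.1 ± 0.738 RPKM (SD, n = 3 each). Higher members, 3 in all, were Lilrb4a (115 against 539 RPKM), Slamf7 (58.2 against 103 RPKM) and Havcr2 (26.2 against 33.5 RPKM). The Klra and Klrb1 genes are families of near-identical members, so that the value of a single one is uncertain.

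**Figure D3:**
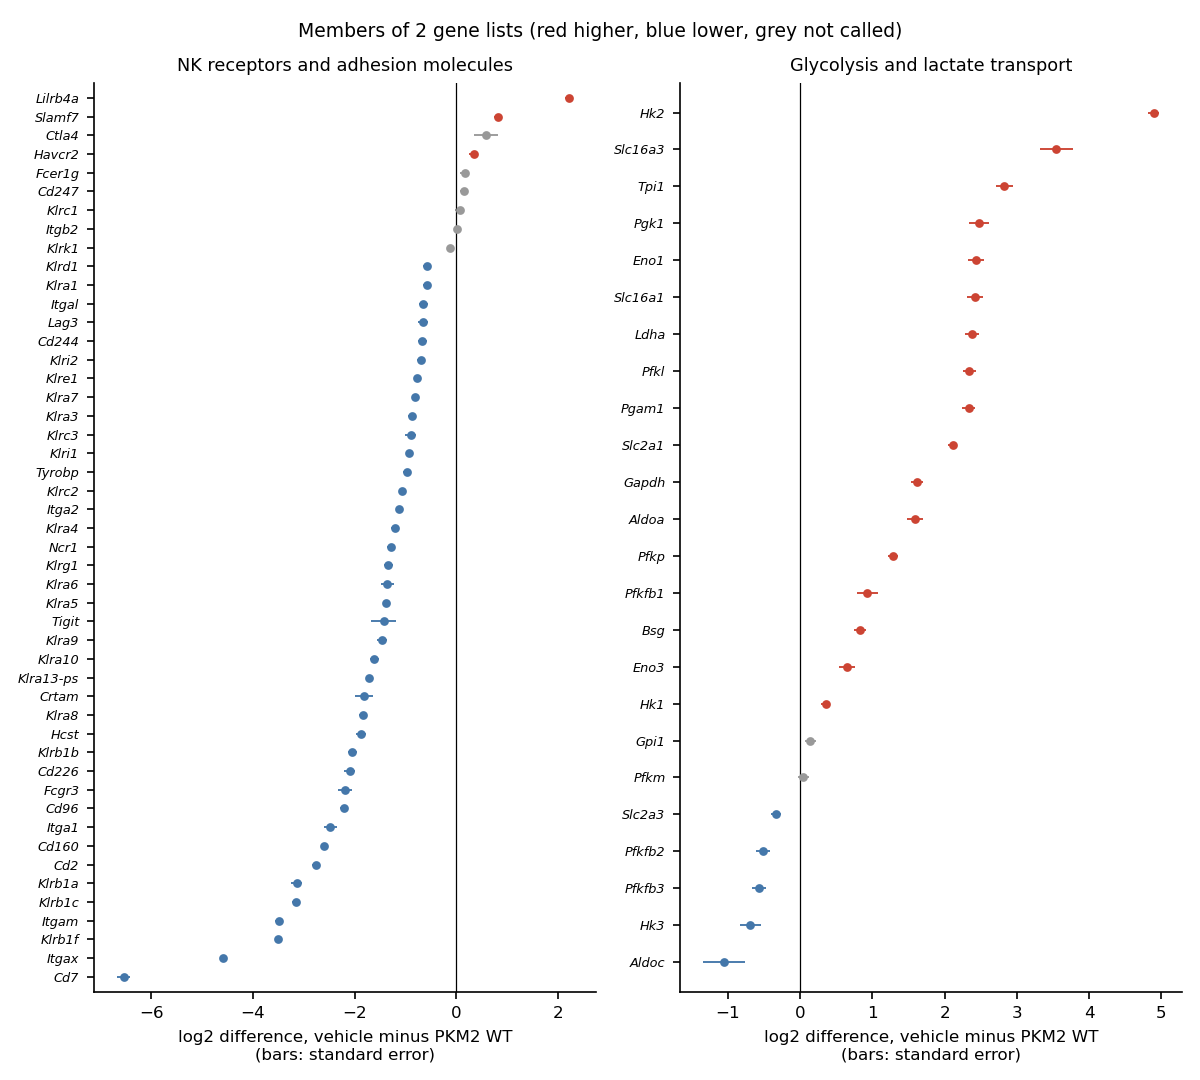
Members of 2 gene lists by their log2 difference, vehicle minus PKM2 WT, with standard errors as bars; red is higher, blue lower and grey not called. On the left 39 of 48 NK receptor and adhesion genes are blue, down to Cd7 at -6.55; on the right 17 of 24 glycolysis genes are red, up to Hk2 at 4.89.

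Of the transcription factors that define NK cells, Tbx21 (T-bet) was at 43.8, 42.2 and 39.6 against 47.7, 44.7 and 48.8 RPKM, a log2 difference of 0.17 (limma adjusted p = 0.0482) that turned to -0.036 with quantile normalization. Eomes was at 89.7 ± 0.913 against 60.7 ± 3.73 RPKM (SD, n = 3 each) and was lower, with a log2 difference of -0.56. Over the 31 tested transcription factors of the list 8 were higher and 17 lower, with a median of -0.50, against 37.9% and 35.8% of all genes. Tcf7, the factor TCF-1 of immature and resting lymphocytes, went from 51.7, 58.8 and 53.0 RPKM to 1.38, 1.30 and 1.36 RPKM, and Bach2, a repressor of effector genes, from 12.9 to 0.810 RPKM. Foxo3, a factor of quiescence, fell from 30.9 to 5.54 RPKM. Irf8, an interferon-induced factor needed for NK cell responses to virus, rose from 60.2, 58.5 and 58.1 RPKM to 257, 266 and 248 RPKM. Zbtb32, a repressor that NK cells need to proliferate in viral infection, was at 2.79, 2.36 and 2.99 against 104, 108 and 95.6 RPKM.

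Genes of quiescence and homing were lower in 23 of 27 tested members and higher in 2, with a median of -1.55, and 18 were at least 2-fold lower. Of all genes tested 35.8% were lower and 10.1% at least 2-fold lower. S1pr1, the receptor by which lymphocytes leave tissues, was at 1.88, 5.83 and 5.50 against 0.12, 0.07 and 0.09 RPKM. Cxcr3, a chemokine receptor, and Pik3ip1, an inhibitor of PI3 kinase, fell 10.3 and 8.83 times by their means. Cdkn1b, the cell cycle inhibitor p27, fell from 74.1 ± 2.03 to 20.7 ± 1.02 RPKM (SD, n = 3 each). Btg1, an antiproliferative gene on the same list, did not differ beyond its spread, at 149 ± 2.66 against 149.6 ± 8.29 RPKM (SD, n = 3 each). The 8 GIMAP genes, GTPases of resting lymphocytes that lie in 1 cluster on chromosome 6, were lower without exception (median -0.86), with Gimap3 at 418 against 177 RPKM.

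Genes of the NF-kB pathway were lower in 15 of 24 members and higher in 6 (median -0.43). Here and for the next 4 lists the shares of all genes tested were 35.8% lower and 37.9% higher. Nfkbia and Nfkbie, inhibitors that NF-kB itself induces, were at 78.3 against 17.5 RPKM and at 21.7 against 6.01 RPKM. Of 22 immediate early and AP-1 genes 11 were higher and 7 lower (median 0.27), among them Egr2, induced by receptor signalling, at 22.1 against 3.60 RPKM, Ier3 at 5.27 against 23.8 RPKM, and Fosl2, an AP-1 subunit, at 14.0 against 49.9 RPKM. The interferon-stimulated genes were lower in 26 of 41 members and higher in 12 (median -0.47), although Ifng was higher. Ly6a, the antigen Sca-1, was at 18.5, 25.7 and 22.6 against 637, 674 and 569 RPKM, while Ly6c2 was at 18.7, 28.6 and 27.9 against 2.71, 1.99 and 2.27 RPKM. The list thus held a 28.2-fold higher and a 10.8-fold lower member of the same gene family, whose reads can be shared. Genes of MHC class I presentation were higher in 7 and lower in 6 of 20 (median 0.01, and -0.21 and -0.06 under quantile and median-ratio scaling), with the light chain gene B2m at 5056 against 2660.4 RPKM and the chaperone gene Calr at 469.7 against 956 RPKM. In the BCL2 family 7 of 14 were higher and 6 lower (median 0.17); Bmf and Bbc3, which promote cell death, fell from 11.3 to 1.40 RPKM and from 12.2 to 3.69 RPKM, and Bnip3, a mitophagy receptor, rose from 7.08 to 35.1 RPKM.

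Metabolic genes were higher in vehicle in most lists. In glycolysis and lactate transport 17 of 24 were higher and 5 lower, with 13 at least 2-fold higher and a median of 1.44. Of all genes tested 37.9% were higher and 13.1% at least 2-fold higher. Hk2, the hexokinase that traps glucose in the cell (chromosome 6, 82725025 to 82774454), was at 2.66, 2.26 and 2.88 against 106, 105 and 107 RPKM. Its log2 difference was 4.89 with a standard error of 0.07 (limma adjusted p = 3.33e-07). Slc16a3, a lactate exporter, was at 6.89, 5.53 and 4.98 against 71.2, 110.3 and 59.7 RPKM, and Slc2a1, the glucose transporter GLUT1, at 8.88, 9.65 and 9.17 against 44.0, 44.3 and 41.2 RPKM. Pkm itself, which encodes the M1 and M2 forms of pyruvate kinase and was counted as 1 gene, was at 221, 198 and 199 against 1027, 1208 and 1019 RPKM. The difference of Pkm between these control groups (a ratio of 5.27) was larger than that between PKM2 WT and PKM2 KO, where the mean was 77.5 RPKM. The 5 lower members were Aldoc, Hk3, Pfkfb3, Pfkfb2 and Slc2a3, with Slc2a3 at 62.3 against 49.2 RPKM. Hif1a, the oxygen-regulated factor of glycolytic genes, had a log2 difference of 1.54. In the list of its targets and regulators outside glycolysis, which counts Hif1a itself, 11 of 17 were higher and 3 lower (median 0.63). Egln3, an oxygen-sensing hydroxylase, was at 0.400 against 5.14 RPKM.

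Nuclear genes of mitochondrial metabolism were also mostly higher. Of 73 nuclear-encoded respiratory chain genes 64 were higher and 4 lower, 19 of them 2-fold higher (median 0.74), and of 33 genes of pyruvate entry and the tricarboxylic acid cycle 27 were higher and 3 lower, 7 of them 2-fold higher (median 0.57), against 37.9% higher and 13.1% 2-fold higher among all genes. Cycs, cytochrome c, was at 29.1 against 134 RPKM. Pdk2, which inhibits pyruvate dehydrogenase, went from 3.95 to 0.387 RPKM. The 15 genes encoded in mitochondrial DNA did not follow: 9 were lower and 1 higher, mt-Nd3, with a median of -0.74, where 35.8% of all genes were lower. mt-Co1 was at 5352, 4889 and 6678 against 2973, 2962 and 3538 RPKM. The ribosomal RNA mt-Rnr2, which carries no long poly(A) tail, was at 17339 ± 276 against 7197 ± 1144 RPKM (SD, n = 3 each).

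Genes that make building blocks were higher too. In serine, folate and nucleotide synthesis 31 of 34 were higher and 2 lower, 23 of them 2-fold higher (median 1.68), where 37.9% of all genes were higher and 13.1% by 2-fold, led by Mthfd2 and Shmt1, enzymes of folate metabolism, at 5.67 against 57.5 RPKM and 2.58 against 28.7 RPKM. In sterol and fatty acid synthesis 32 of 36 were higher and 2 lower, 22 by 2-fold (median 1.37); Fdps, an enzyme of isoprenoid synthesis, was at 30.1, 23.6 and 25.9 against 198, 246 and 190.0 RPKM. Slc7a5 and Slc3a2, the 2 chains of the large neutral amino acid transporter, were at 3.89 against 56.4 RPKM and at 42.9 against 102 RPKM, and 8 of 10 amino acid transporters were higher and 2 lower (median 0.86). The ATF4 list of amino acid stress was mixed (6 of 13 higher, 2 lower, median 0.23), with asparagine synthetase, Asns, at 3.29 against 27.7 RPKM and the stress factor Ddit3 at 27.2 against 12.6 RPKM. In the pentose phosphate and redox list 18 of 30 were higher and 2 lower (median 0.57), and Txn1, thioredoxin, was at 82.2 against 246 RPKM. Of the 4 metallothionein and zinc genes 3 were higher (median 1.45), led by Mt2 with a log2 difference of 2.66.

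Genes of protein production and quality control were higher in most of their lists. Of 46 genes of ribosome biogenesis and MYC targets 43 were higher and 2 lower, 37 of them 2-fold higher (median 1.62), against 37.9% and 13.1% of all genes higher and 2-fold higher. Myc was at 23.8, 21.7 and 21.0 against 72.2, 73.4 and 80.2 RPKM, and its relative Mycn at 0.97, 0.85 and 0.86 against 27.0, 28.4 and 25.6 RPKM. Both Myc and its antagonist Mxd1, at 15.9 against 173 RPKM, were thus higher, as was Srm, spermidine synthase, at 6.89 against 82.6 RPKM. All 20 aminoacyl-tRNA synthetase genes were higher (median 1.34) and so were all 31 proteasome subunits (median 1.19). Chaperones of the endoplasmic reticulum were higher in 16 of 20 and lower in 1 (median 1.22), and cytosolic and mitochondrial chaperones in 17 of 20 with none lower (median 1.27), Hsp90aa1 at 127 against 616 RPKM. Cytosolic ribosomal proteins differed from these lists: 27 of 79 were higher and 15 lower, none by 2-fold, with a median of 0.11, and median-ratio scaling gave 16 higher and 18 lower. Without PKM2 WT replicate 2 there were 16 higher, without PKM2 WT replicate 3 there were 17 higher, and without vehicle replicate 1 there were 9 lower.

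Cell cycle genes were higher almost throughout. All 44 DNA replication genes were higher, 36 by 2-fold (median 1.67), against 37.9% and 13.1% of all genes, among them Cdc6, which licenses origins, at 5.63 against 33.1 RPKM. In the mitosis list 39 of 40 were higher, 38 by 2-fold (median 1.75), with Ccnb1, cyclin B1, at 14.3, 9.97 and 9.39 against 72.4, 92.9 and 68.1 RPKM. The exception, Cdc25b, was at 17.4 against 22.3 RPKM and did not pass. Of 17 D cyclins, partners and inhibitors 14 were higher and 3 lower (median 0.97). The inhibitors themselves were split, Cdkn1a (p21) being at 3.28, 3.42 and 2.91 against 32.1, 32.4 and 31.1 RPKM and Cdkn1b lower as given above. The canonical histone genes had the highest median of the 36 pathway lists other than the sex-linked genes, at 2.01, with 59 of 61 higher and none lower. Their messenger RNAs end without a poly(A) tail and many are near-identical, and Hist1h2ao, for one, was at 143, 96.1 and 109 against 105, 90.5 and 159 RPKM, with overlapping groups. The 11 genes of the dissociation and stress list were higher in 8 and lower in 3 (median 0.42), Gadd45g at 26.9 against 261 RPKM and the p53 target Trp53inp1 at 73.8 against 12.7 RPKM.

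**Figure D4:**
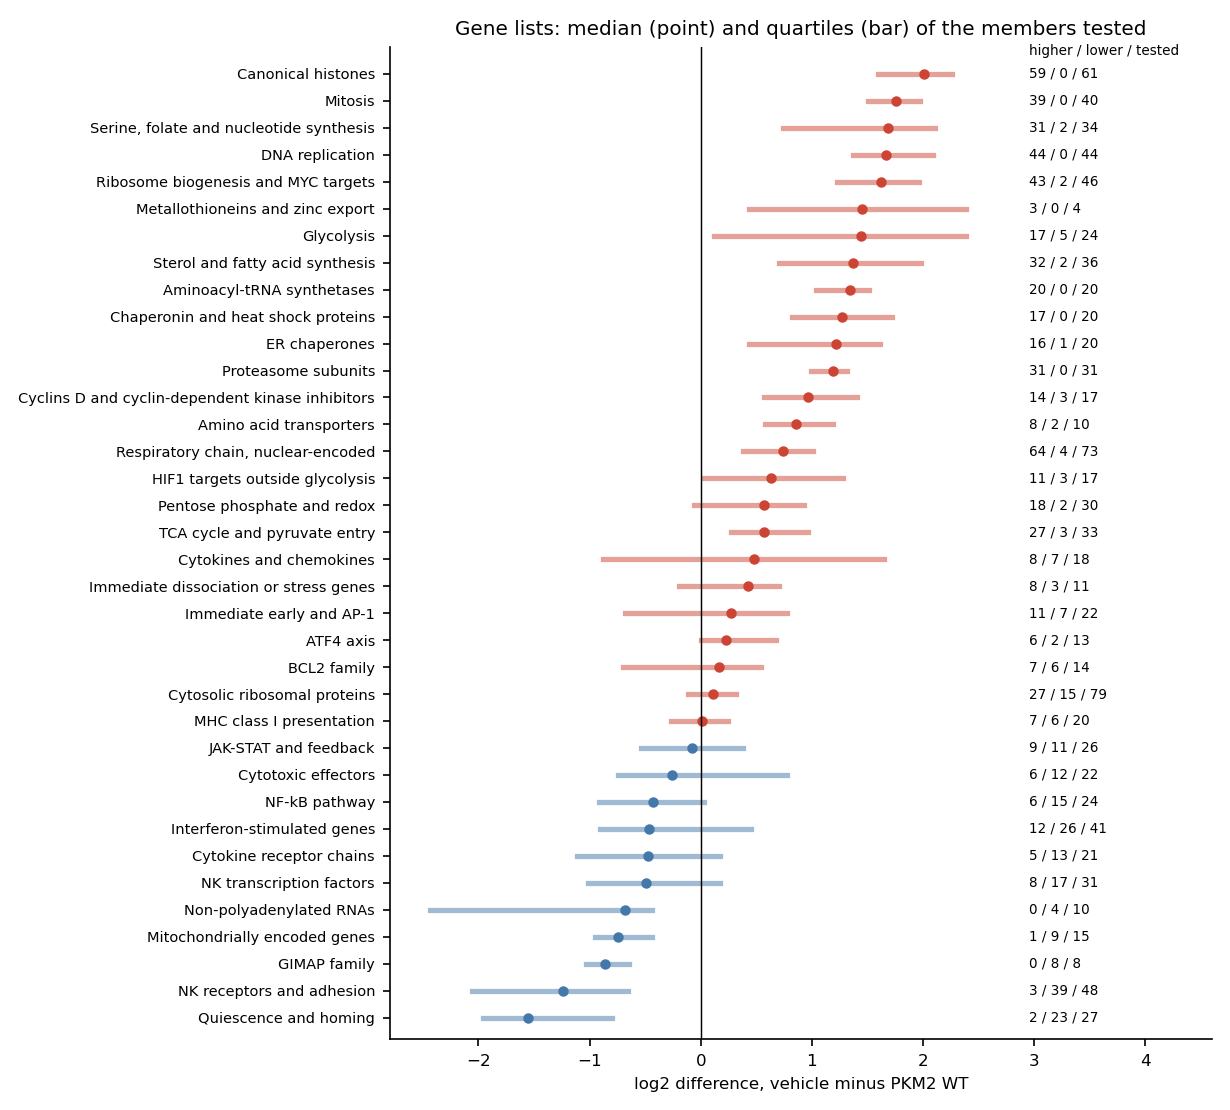
Median log2 difference (point) and quartiles (bar) of the tested members of each pathway list, vehicle minus PKM2 WT; figures at the right give the members higher, lower and tested. Histone, cell cycle and biosynthetic lists lie to the right, up to 2.01, and quiescence and homing (-1.55) and NK receptors (-1.24) to the left.

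Some of the largest differences lay outside these lists. Sema7a, a membrane semaphorin of activated lymphocytes, was at 0.78, 1.16 and 1.22 against 53.2, 48.5 and 51.9 RPKM, and Stom, a membrane scaffold, at 0.867 ± 0.434 against 42.5 ± 4.45 RPKM (SD, n = 3 each). Furin, a protease that matures secreted proteins, rose from a mean of 14.1 to 261 RPKM. P2rx3, an ATP-gated channel best known from sensory neurons, was at 0.16, 0.27 and 0.24 against 16.1, 17.9 and 13.0 RPKM, and Tnfrsf8, the receptor CD30, at 0.15, 0.18 and 0.20 against 14.5, 14.4 and 15.4 RPKM. These 2 genes were thus below 1 RPKM in every library labelled PKM2 WT. On the other side Adgre5, the adhesion receptor CD97, fell from 119 to 6.32 RPKM, Pglyrp1, a peptidoglycan-binding protein of granules, from 142 to 10.5 RPKM and Phactr3, a phosphatase and actin regulator, from 15.3 to 0.257 RPKM. Slc15a2, a peptide transporter, was at 37.1, 35.9 and 33.0 against 1.62, 2.19 and 1.97 RPKM. Its mean in PKM2 KO was 0.0900 RPKM, below that in vehicle.

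Among the most abundant genes, Eef1a1, an elongation factor, was at 8239 ± 386 against 6781 ± 164 RPKM and Actb, beta-actin, at 5106 ± 330.0 against 8663 ± 206 RPKM (SD, n = 3 each). The 4 protein-coding genes of at least 100 RPKM on average with the smallest differences were Btg1, Hist1h2ao, Arpc3 and Car2; Arpc3, an actin nucleator subunit, was at 381 ± 14.1 against 381 ± 21.6 RPKM (SD, n = 3 each). A further 36 genes were listed at 0 in all 3 libraries labelled PKM2 WT and 66 in all 3 vehicle libraries, of which 0 and 1 were protein-coding. The rest were mostly small RNAs, such as Rny3 (3132, 1923 and 785 RPKM against 0 in each vehicle library), for which no fold is given. Copies of such genes, as of the U3 RNA, share reads and in places carry the same value, so that they are not separate measurements.

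Several marker lists of other cells differed between the groups. Of all genes tested 35.8% were lower and 37.9% higher, and the counts below stand beside these shares. Of the 12 NK identity markers, all tested, 5 were higher, near the share of all genes, and 6 lower (median -0.34). They summed to between 7567 and 8263 RPKM in the libraries labelled PKM2 WT and between 19069 and 20502 RPKM in vehicle, mostly through Gzmb. Of 22 granulocyte, basophil and mast cell markers 10 were tested and 9 were lower, and their summed RPKM was 289, 320 and 513 against 68.1, 57.0 and 81.9. Cpa3 and Mcpt8, proteases of mast cells and basophils, were at 29.3, 27.7 and 62.9 against 1.29, 0.40 and 3.38 RPKM and at 40.6, 45.8 and 101 against 6.34, 6.10 and 10.4 RPKM, highest in PKM2 WT replicate 3. Of 19 T cell markers 10 were tested and 7 lower (median -1.39); their sum was 1221 to 1318 against 990.0 to 1033 RPKM, and Cd3g was at 84.8, 69.9 and 100.2 against 7.18, 8.17 and 8.35 RPKM. Cd3g is also transcribed in NK cells. In PKM2 KO, of the same experiment as PKM2 WT, it was at 14.6 and 6.43 RPKM. Cd3g is in the authors' deposited table of genes that differ by genotype, and the cause of its levels was not tested. Cd3e, Cd4, Cd8a, Cd5 and Cd6 were not analysed here. Of 12 markers of ILC1 and helper innate lymphocytes 9 were tested and 7 lower (median -1.74), among them Itga1 at 54.7 against 8.91 RPKM, and their sum was 340 to 395 against 107 to 113 RPKM. Of 20 B and plasma cell markers 2 were tested, Ighm lower at 60.0 against 5.70 RPKM and Igkc at 1.80 against 0.463 RPKM without passing. Of 16 macrophage and monocyte markers 1 was tested, Cd68, lower at 17.0 against 10.2 RPKM. Of 13 dendritic cell markers 6 were tested, Xcr1 and Bst2 higher and Clec10a lower, with a sum of 21.6 to 29.9 against 54.8 to 58.6 RPKM. Of 13 erythroid and platelet markers Itga2b was tested and lower, with a log2 difference of -1.11. Of 11 stromal and endothelial markers Pecam1 was tested, at 114 against 109 RPKM, and was not called. Itga2b and Igkc passed the limit on low values through PKM2 WT alone, as did Bcl11b of the T cell list. The part of these cells in the differences above was not tested.

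**Figure D5:**
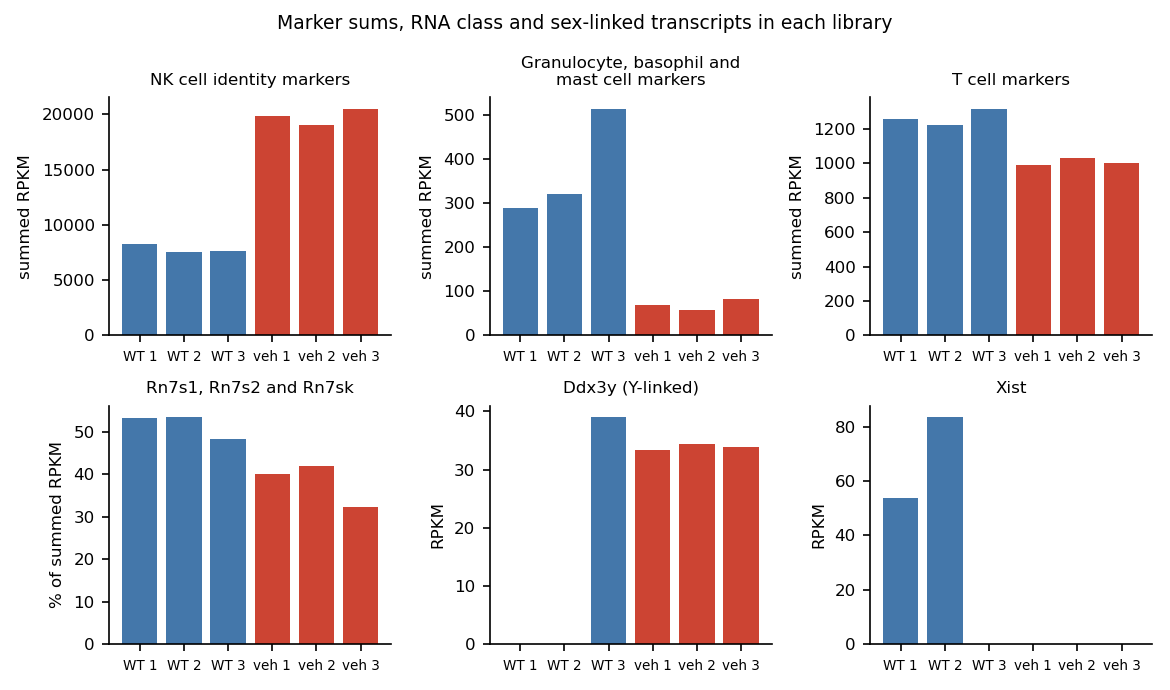
Summed RPKM of 3 marker lists, the share of summed RPKM taken by 3 non-polyadenylated RNAs, and RPKM of Ddx3y and Xist, for each of the 6 libraries (blue labelled PKM2 WT, red vehicle; each bar is 1 library). Granulocyte, basophil and mast cell markers and the RNA share are higher in every library labelled PKM2 WT, and PKM2 WT replicates 1 and 2 express Xist while the other 4 libraries express Ddx3y.

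The libraries also differed in RNA classes and in sex-linked transcripts. Rn7s1, Rn7s2 and Rn7sk, abundant small RNAs without poly(A) tails, took 53.4%, 53.5% and 48.3% of summed RPKM in the libraries labelled PKM2 WT and 40.1%, 42.0% and 32.4% in vehicle (exact two-sided permutation test, p = 0.1, the smallest possible). Of the list of 10 such RNAs 4 were lower and none higher (median -0.68), where 35.8% of all genes were lower and 37.9% higher. The share called lower was thus near that of all genes. Such RNAs were present although the labels name poly(A) selection. Summed RPKM was 1286401 to 1587695 in the libraries labelled PKM2 WT and 1022537 to 1236881 in vehicle, while the median tested gene was at 13.2 to 13.8 and 13.8 to 14.4 RPKM. By class, the median difference was 0.06 for 9686 protein-coding genes, -0.53 for 160 lincRNAs, -0.59 for 160 snoRNAs and -1.32 for 78 snRNAs. Among protein-coding genes it went from 0.26 in the shortest of 5 classes of exonic length to -0.15 in the longest, and lay between -0.01 and 0.11 over the classes of GC content. The part of RNA selection in the results was not tested. Ddx3y, on the Y chromosome, was listed at 0 in PKM2 WT replicates 1 and 2 and was at 39.0 RPKM in replicate 3 and 33.4, 34.3 and 33.9 RPKM in vehicle, and Xist was at 54.0, 83.6 and 0.06 against 0.02, 0.01 and 0.01 RPKM. None of the 5 sex-linked genes of the list passed (median 2.51), and 4 were called higher without PKM2 WT replicate 3. With PKM2 WT replicate 3 as the only library of its group, an alternative chosen after seeing the data, 3497 genes were higher and 3680 lower, 1456 and 1296 of them by 2-fold. The spread then came from the vehicle libraries alone, and the single library was assumed to vary as they do. These 2-fold genes held 1351 of the 1464 and 1043 of the 1127 genes named above.

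The other groups of the 2 experiments followed their own controls in most of these genes, with exceptions such as Cd3g. Of the 1464 genes at least 2-fold higher in vehicle, 1450 had every TEPP-46 library above every PKM2 KO library and 0 had the reverse, against 40.4% of all genes tested with TEPP-46 above. Of the 1127 genes at least 2-fold lower, 1087 had every TEPP-46 library below every PKM2 KO library and 4 the reverse, against 41.1% of all genes. Across genes, log2 values of libraries labelled PKM2 WT correlated with those of PKM2 KO at r between 0.958 and 0.970 and with vehicle at r between 0.845 and 0.872, and vehicle with TEPP-46 between 0.971 and 0.984; genes are not independent replicates. The 2 comparisons share no library, but TEPP-46 belongs to the experiment of vehicle and PKM2 KO to that of PKM2 WT. Differences between the experiments enter both, so the second is not independent support for the first.

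The authors' deposited table of genes that differ by genotype also lists ratios between groups it names WT 2/12 and WT US, the latter not explained in the sources used here, and 7 of its 11 genes are in the RPKM table. The authors' deposited table gives Pkm a ratio of 5.78, where vehicle over PKM2 WT was 5.27 here. For Rnf26, a ubiquitin ligase, the authors' deposited table gives 3.39 beside 2.47 here, and for Cd3g 0.450 beside 0.0930. For Dixdc1 the authors' deposited table gives 0.460 beside 0.263, for Nlrx1 0.754 beside 0.803 and for Slc37a4 1.70 beside 1.24. The ratio lay on the same side of 1 for 6 of the 7 genes; the exception was Jaml, with 1.45 in the authors' deposited table and 0.849 here. The ratio of PKM2 KO over PKM2 WT from the RPKM was nearer to the authors' KO US over WT US for 3 of the 7 genes and nearer to their KO 2/12 over WT 2/12 for 4. These 7 genes were listed for a genotype difference, and no share over all genes can be set beside the counts. The counts therefore cannot tell which group the libraries labelled PKM2 WT hold.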

How the data were processed

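RNA of cultured mouse NK cells was sequenced with a stranded kit and poly(A) selection, per the labels' protocols, and reads were aligned with STAR to mm10, per the submitters' processing notes. The authors deposited RPKM values for 11706 genes; the counting tool, its annotation and tool versions were not given in the sources used here. Of the library columns 11 matched a sample and 5 were not used; PKM2 KO replicate 3 was not analysed here. The ratio values come from the authors' deposited table. Low values were not whole multiples of 1 read (a regularity of 0.197 to 0.322, where 1 is whole), so that the depth is unknown and no count test or interval was run. Coordinates and classes came from GENCODE M21 (GRCm38, 11675 IDs matched by ID) and promoters from RefSeq GRCm38.p6, found for 7738 tested symbols.

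Genes averaging 1 RPKM or more over the 6 libraries were tested as log2(RPKM + 1), a scale that understates changes of low genes, with limma 3.58.1 (trend) in R 4.3.3 on 3 against 3 libraries, with Benjamini-Hochberg adjustment and a threshold of 0.05; figures used matplotlib 3.10.9 and Python 3.11.15. Named genes were a panel, the largest differences, up to 3 of each list, the most abundant and the least different genes. The members, lists and panel were chosen with earlier results of these data known. Of the panel, Klf2 and S1pr5 were not analysed here, and some named genes are not reported here. On simulated data for this comparison (11144 genes, 200 changed), 68.7%, 95.7% and 98.4% of genes changed 1.5-, 2- and 4-fold were recovered and 7 unchanged genes were called. The changed genes were drawn only from those of higher level, and far fewer were changed than differed in the data. The rates therefore do not describe genes near 1 RPKM. Alternatives were another pseudocount, filter, scaling, set of libraries, variance model, gene class, replicate block, and leaving out each library.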

Additional observations from a re-analysis of the deposited data

How the results depend on the processing

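Main counts were 4227 higher and 3993 lower, 1464 and 1127 of them by 2-fold. With a pseudocount of 5 the 2-fold lower genes numbered 558, and with 0.1 they numbered 1510. Other scalings, filters and models kept the 4 counts within 1.5 times. Leaving out each library in turn gave 3910 to 4169 higher, 3621 to 3966 lower, 1408 to 1509 higher by 2-fold and 1075 to 1229 lower by 2-fold. Deviations of same-numbered libraries from their group means correlated at r of -0.094, 0.060 and 0.097, within the -0.197 to 0.147 of differently numbered ones. With so few libraries these values cannot decide whether the numbers mark pairs. A replicate block gave 4177 higher and 3892 lower.

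The median of MHC class I genes turned to -0.21 (quantile) and -0.056 (median-ratio), and with single libraries left out lay between -0.024 (PKM2 WT replicate 3) and 0.031. That of sex-linked genes turned to -0.20 with PKM2 WT replicate 3 alone, chosen after seeing the data, as did Eif2s3y, to -0.12. That of dendritic markers turned to 1.90 (mean of at least 5 RPKM) and 0.28 (quantile), and with libraries left out lay between -0.18 and 0.038 (PKM2 WT replicate 2). Tbx21 turned to -0.036 (quantile). The least different genes also changed sign. Without 7SL and 7SK RNA Btg1 was at 0.0032, Arpc3 at 0.0014 and Car2 at 0.00057, Hist1h2ao was at -0.28 (quantile) and -0.066 (median-ratio), and Arpc3 was at 0.015 with PKM2 WT replicate 3 alone. With single libraries left out Btg1 lay between -0.031 and 0.045, Hist1h2ao between -0.23 and 0.17, Arpc3 between -0.045 and 0.035 and Car2 between -0.082 and 0.058. Il12rb2, Cish, Gzma, Tbx21, Rn7sk, Rnu12, Clec10a, Eef1a1, mt-Co1, mt-Atp8 and Tmsb4x lost their call under at least 1 alternative. The cause was not tested.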
